A study of Mus musculus with 7 samples.

Results

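The genes described here encode the receptors through which sensory neurons read neurotrophins and ligands of the GDNF family, together with 1 neurotrophin and 1 sorting receptor. They were chosen by symbol: Bdnf, Ntrk2, Ntrk3, Ngfr, Sort1, Ret, Gfra1, Gfra2 and Gfra3. All 9 were found among the 54309 genes of the deposited expression table. The samples were 7 RNA-seq libraries from the lumbar (L4-6) dorsal root ganglia of C57bl/6 mice labelled male and 6-8 weeks old. Every mouse had a sciatic nerve injury, made at Zeitgeber time (ZT) 8 in 3 libraries and at ZT20 in 4, and the ganglia were removed 72 h later, so that the hour of injury and the hour of dissection were the same within a group. There was no uninjured group. The ganglia were dissociated with Dispase II, Collagenase Type II and papain and passed over a gradient of 15% BSA to enrich neurons. The labels do not say whether a library held 1 animal or several, or whether libraries came from separate animals, so p-values measure the spread between these libraries, which may be technical.

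Neurotrophins are made by target tissues, glia and some neurons, and keep sensory neurons alive during development. In the adult they tune excitability and growth after nerve injury. Trk receptors are tyrosine kinases with preferred ligands, among them TrkB (Ntrk2) for BDNF and TrkC (Ntrk3) for the product of Ntf3. The p75 receptor (Ngfr) binds all neurotrophins and, with sortilin (Sort1), their uncleaved proforms. GDNF family ligands use another kinase, RET, which is brought to the ligand by a lipid-anchored co-receptor: GFRα1 (Gfra1) for GDNF, GFRα2 (Gfra2) for neurturin and GFRα3 (Gfra3) for artemin. In the dorsal root ganglion these receptors divide the neurons into classes, with TrkC in proprioceptors and some touch neurons, TrkB in touch neurons and RET in nonpeptidergic nociceptors and touch neurons.

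Gfra1, Ntrk3, Ret and Gfra3 were higher at ZT20 than at ZT8 past the threshold, by 1.62 to 1.95 times in mean level. Levels are in TPM (transcript abundance), which are scaled by transcript length and to the same sum in every library. Each difference below is ZT20 minus ZT8 on the log2(TPM + 1) scale, which understates the change of low genes, with its standard error (SE) and a Benjamini-Hochberg adjusted p from limma over the 14800 genes whose mean reached 1 TPM, called at an adjusted p under 0.05. All 9 genes passed that filter. Of them 4 were called higher and 0 lower, against 12.8% of all tested genes called higher and 3.61% called lower (16.4% in all). Their median difference was 0.68, beside 0.23 over all tested genes, of which 66.4% had a positive difference. In 6 of the 9 genes the libraries of the groups did not overlap, with ZT20 higher in each, against 24.5% of tested genes (33.2% in either direction).

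Some libraries went against their labels or stood apart. The labels give male mice throughout, yet ZT20 replicates 3 and 4 listed Ddx3y, Eif2s3y and Uty, genes of the Y chromosome, at 0. Xist, the RNA that coats the silenced X chromosome in females, reached 1.08, 2.21 and 2.30 TPM in ZT20 libraries 2, 3 and 4 and at most 0.00467 TPM in the other libraries. ZT8 replicate 2 had 18297 genes above 0, against 22541 to 25238 in the other libraries, and it held the lowest value of 6 of the 9 genes. The labels' description field names the libraries by numbers at ZT20 and by letters at ZT8, so anything that went with this naming cannot be told apart from the groups. Without ZT20 replicates 3 and 4, limma called 0 genes in the whole table (2378 had an unadjusted p under 0.05), and 0 of the 9 genes (5 had an unadjusted p under 0.05), although 8 of the 9 differences were still positive. The differences were then 0.70 for Gfra1 (adjusted p = 0.168, limma), 0.69 for Gfra3 (0.178), 0.59 for Ntrk3 (0.247) and 0.58 for Ret (0.250). Leaving out ZT20 replicate 2 as well, which leaves 1 ZT20 library assumed to vary like the ZT8 libraries, gave 0.80 for Gfra1, 0.62 for Gfra3, 0.68 for Ntrk3 and 0.32 for Ret, with 0 genes called by limma and 1155 at an unadjusted p under 0.05.

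**Figure D1:**
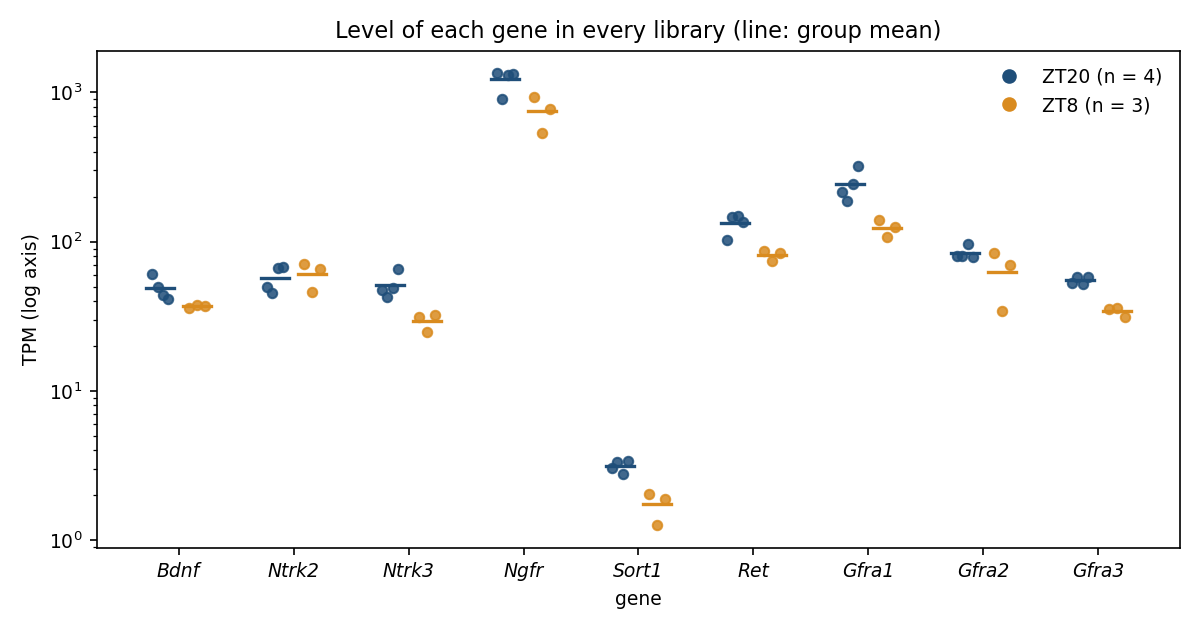
Expression of the 9 genes in each library, in TPM on a log axis, with 1 point per library (ZT20, n = 4; ZT8, n = 3) and a line at each group mean. The libraries of the groups do not overlap for Bdnf, Ntrk3, Sort1, Ret, Gfra1 and Gfra3, and they overlap for Ntrk2, Ngfr and Gfra2.

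The start regions of 3 of the genes are shown because they cover a receptor gene that rose (Gfra1), one that missed the threshold (Ngfr) and one with no difference past it (Ntrk2). From the RefSeq promoter table for GRCm38.p6, 10 windows for 4 of the 9 genes were used, 7 of them for Bdnf. No window was used for Ntrk3, Sort1, Ret, Gfra2 or Gfra3, and for Gfra3 this does not mean that the table held none. Each sequence is the 250 bases before the annotated start, 5′ to 3′ on the gene's strand, at chr19:58455399-58455648 (minus strand) for Gfra1, chr11:95587699-95587948 (minus strand) for Ngfr and chr13:58806319-58806568 (plus strand) for Ntrk2. Capitals mark matches to the searched motifs, which here are GC boxes.
Gfra1: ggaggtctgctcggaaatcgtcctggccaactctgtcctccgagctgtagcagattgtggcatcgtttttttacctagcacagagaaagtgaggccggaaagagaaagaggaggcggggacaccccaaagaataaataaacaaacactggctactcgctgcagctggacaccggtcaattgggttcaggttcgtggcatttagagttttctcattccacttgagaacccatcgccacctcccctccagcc
Ngfr: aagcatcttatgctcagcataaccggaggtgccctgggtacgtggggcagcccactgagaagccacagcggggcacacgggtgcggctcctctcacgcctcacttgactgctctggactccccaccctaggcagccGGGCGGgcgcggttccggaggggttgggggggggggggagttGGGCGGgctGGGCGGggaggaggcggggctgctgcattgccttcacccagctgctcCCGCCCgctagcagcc
Ntrk2: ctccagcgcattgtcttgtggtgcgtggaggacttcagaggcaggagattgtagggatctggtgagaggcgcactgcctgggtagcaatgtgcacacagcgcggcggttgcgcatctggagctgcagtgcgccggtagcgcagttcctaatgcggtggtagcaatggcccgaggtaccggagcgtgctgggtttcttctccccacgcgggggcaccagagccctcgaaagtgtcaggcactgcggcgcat

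The search covered 300 bases, from 250 before to 50 after the start, on both strands, in all 32851 windows of the table. The GC box (GGGCGG) was in 4 of the 10 windows, against 35.7% of all windows: 4 times before the Ngfr start, once in the bases after the Ntrk2 start, and in 2 of the 7 Bdnf windows. The E-box of clock factors (CACGTG), present in 7.15% of windows, was in none of the 10. Neither form of the D-box was in them (TTATGTAA, 0.938% of windows, and TTACGTAA, 0.119%), nor was the AP-1 motif (TGAGTCA, 5.20%). The core motif of ROR and REV-ERB factors (AGGTCA, 16.3% of windows) and that of CREB (TGACG, 20.8%) each matched 1 Bdnf window. GC content of the 250 bases was 52.4% for Gfra1, 62.8% for Ntrk2 and 70.4% for Ngfr. A match is a run of letters and not a binding site, and no binding was measured.

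In level, the 9 genes spanned a wide range. Averaged over all 7 libraries, Ngfr stood first at 1020 TPM, above 99.2% of tested genes, followed by Gfra1 (191 TPM) and Ret (111 TPM). Gfra2 (75.1), Ntrk2 (58.8), Gfra3 (46.2), Bdnf (43.7) and Ntrk3 (42.0 TPM) formed a close middle group, and Sort1 was last at 2.54 TPM, above 17.0% of tested genes. Ngfr exceeded Gfra1, Gfra1 exceeded Ret and Ret exceeded Gfra2 in 7 of 7 libraries. The order inside the middle group was loose: Gfra2 exceeded Ntrk2 in 6 libraries, Ntrk2 exceeded Gfra3 in 5, Gfra3 exceeded Bdnf in 3 and Bdnf exceeded Ntrk3 in 5. Among neighbours in this order, the ranges over the 7 libraries separated only Ngfr from Gfra1 and Ntrk3 from Sort1. In bulk samples such as these, fewer cells of a type and less RNA per cell cannot be told apart.

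Bdnf, the ligand of TrkB, is made by a part of the sensory neurons themselves. It was at 60.6, 49.7, 44.1 and 41.2 TPM in the ZT20 libraries and at 36.0, 37.6 and 37.0 TPM in the ZT8 libraries. Every ZT20 library lay above every ZT8 library, and the ZT8 libraries lay close together, with means of 48.9 ± 8.56 (SD, n = 4) and 36.8 ± 0.811 (SD, n = 3). The difference was 0.38 (SE 0.16, adjusted p = 0.119, limma) and did not pass.

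Ntrk2, the TrkB kinase, had no difference past the threshold and was the only one of the 9 genes with a negative value. Its levels were 49.5, 45.3, 66.5 and 67.6 TPM at ZT20 and 71.0, 45.9 and 65.6 TPM at ZT8. High and low libraries occurred in both groups, which overlapped throughout, with means of 57.2 ± 11.5 (SD, n = 4) and 60.9 ± 13.2 (SD, n = 3). The difference was -0.085 (SE 0.21, adjusted p = 0.796, limma), with a 95% confidence interval from -0.56 to 0.39.

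Ntrk3, the TrkC kinase, rose. It stood at 47.8, 42.4, 49.1 and 66.1 TPM at ZT20 against 31.4, 25.0 and 32.5 TPM at ZT8. All ZT20 libraries were higher than all ZT8 libraries, with means of 51.3 ± 10.3 (SD, n = 4) and 29.6 ± 4.05 (SD, n = 3), a ratio of 1.73. The difference was 0.76 (SE 0.18, adjusted p = 0.0260, limma). It missed the threshold without ZT20 replicate 1 (0.79, adjusted p = 0.0596), replicate 3 (0.78, 0.0743) or replicate 4 (0.64, 0.0670), and with no filter (0.0596). It was 0.012 after a correction for transcript length and GC content (0.976) and 0.38 with a neuronal marker score as covariate (0.306). Both Ntrk2 and Ntrk3 make full-length and kinase-less receptor forms. The deposited values are per gene and do not separate them, and the annotation lists 10 transcripts for Ntrk2 and 20 for Ntrk3 and other genes that overlap each of them.

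The balance of the Trk genes was also read within each library. Ntrk2 was 1.04, 1.07, 1.35 and 1.02 times Ntrk3 in the ZT20 libraries and 2.26, 1.84 and 2.02 times in the ZT8 libraries. TrkB and TrkC transcripts were thus near parity at ZT20, and TrkB transcripts were the more abundant in every ZT8 library (mean ratio 1.12 ± 0.157, n = 4, against 2.04 ± 0.212, n = 3, SD). These ratios were chosen after the values were seen and are given as a description, with no test.

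Ngfr, the p75 receptor, was at 1341, 908, 1315 and 1330 TPM at ZT20 and at 936, 535 and 777 TPM at ZT8. A single pair of libraries made the groups overlap: ZT20 replicate 2 lay below ZT8 replicate 1. Means were 1224 ± 211 (SD, n = 4) and 749 ± 202 (SD, n = 3). The difference was 0.73 (SE 0.21, adjusted p = 0.0509, limma), with a 95% confidence interval from 0.24 to 1.21. It passed without ZT20 replicate 2 (0.86, adjusted p = 0.0362) or without ZT8 replicate 1 (0.90, adjusted p = 0.0357), the libraries of that pair. Of the 7 fits without 1 library it passed in only these 2, with differences from 0.50 to 0.90 (adjusted p up to 0.132, limma). With the neuronal covariate it dropped to 0.11 (adjusted p = 0.769), and under median-ratio scaling it was 0.49 (0.103). The ratio of Ngfr to Ntrk2 was 27.1, 20.1, 19.8 and 19.7 at ZT20 and 13.2, 11.7 and 11.8 at ZT8, without overlap. The ratio of Ngfr to Ntrk3 overlapped between the groups, at 24.1 ± 3.92 (SD, n = 4) and 25.0 ± 4.30 (SD, n = 3).

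Sort1 encodes sortilin, which joins p75 to bind proneurotrophins and also sorts proteins inside the cell. It was at 3.06, 3.35, 2.78 and 3.37 TPM at ZT20 and at 2.05, 1.26 and 1.90 TPM at ZT8. The groups did not overlap, with means of 3.14 ± 0.280 (SD, n = 4) and 1.74 ± 0.420 (SD, n = 3), and the difference of 0.61 (SE 0.23, adjusted p = 0.0979, limma) did not pass.

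**Figure D2:**
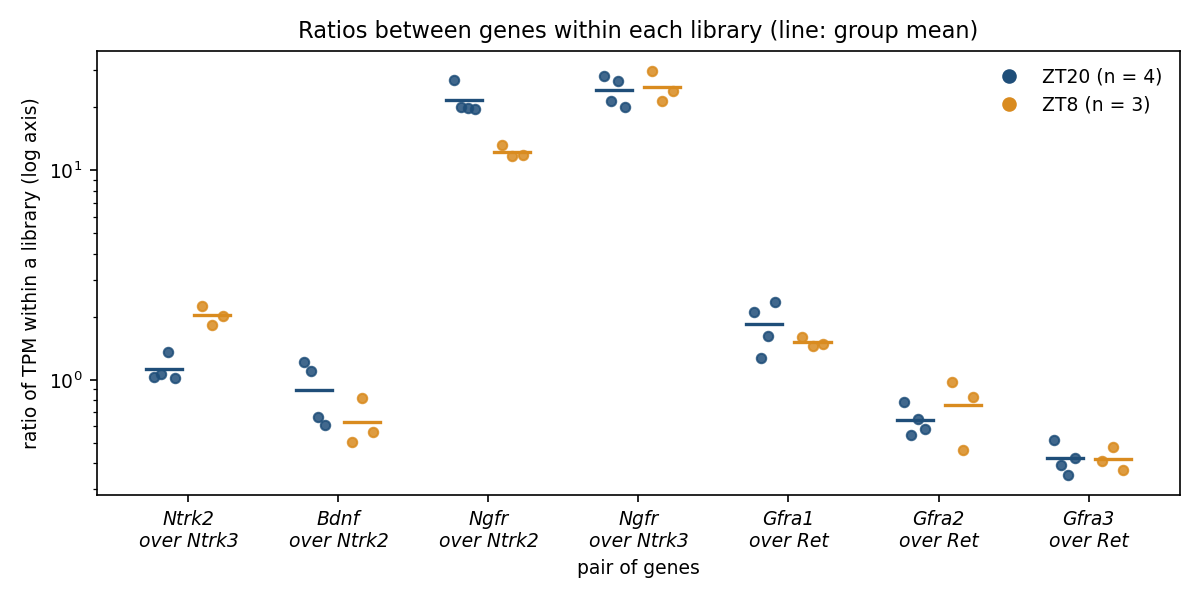
Ratios between receptor genes computed within each library, on a log axis, with 1 point per library (ZT20, n = 4; ZT8, n = 3) and a line at each group mean. Ntrk2 over Ntrk3 lies between 1.02 and 1.35 at ZT20 and between 1.84 and 2.26 at ZT8, while Gfra1 over Ret overlaps between the groups.

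Ret, the kinase shared by the GDNF family, rose. Its levels were 102, 147, 149 and 136 TPM at ZT20 and 86.6, 74.5 and 84.3 TPM at ZT8. The lowest ZT20 library was above the highest ZT8 library, with means of 133.7 ± 21.7 (SD, n = 4) and 81.8 ± 6.40 (SD, n = 3), a ratio of 1.63. The difference was 0.69 (SE 0.16, adjusted p = 0.0222, limma). It missed the threshold without ZT20 replicate 3 (0.63, adjusted p = 0.0753), without replicate 4 (0.68, 0.0698), after scaling the libraries by their median ratio (0.46, 0.0707) and with no filter (0.0533). It was 0.14 after the length and GC correction (0.570) and 0.58 with the neuronal covariate (0.162).

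Gfra1, the GDNF co-receptor, had the largest difference of the 9 genes in TPM as deposited, though not after the length and GC correction or with the neuronal covariate. It was at 216, 188, 243 and 321 TPM at ZT20 and at 139, 108 and 126 TPM at ZT8. ZT20 replicate 4 was highest, and no library of one group reached the other, with means of 242 ± 57.4 (SD, n = 4) and 124 ± 15.5 (SD, n = 3), a ratio of 1.95. The difference was 0.93 (SE 0.19, adjusted p = 0.0153, limma), and without ZT20 replicate 3 it was 0.92 with an adjusted p of 0.0521.

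Gfra2, the neurturin co-receptor, was at 80.1, 80.5, 97.2 and 78.9 TPM at ZT20 and at 84.5, 34.4 and 70.2 TPM at ZT8. The ZT8 libraries were spread widely and overlapped the ZT20 range, with means of 84.2 ± 8.72 (SD, n = 4) and 63.0 ± 25.8 (SD, n = 3). The difference of 0.50 (SE 0.28, adjusted p = 0.229, limma; 95% confidence interval -0.13 to 1.13) did not pass, and without ZT8 replicate 2, the low library, it was 0.12.

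Gfra3, the artemin co-receptor, rose, with the smallest standard error of the 9 genes. It was at 53.0, 58.1, 52.4 and 57.7 TPM at ZT20 and at 35.6, 35.7 and 31.3 TPM at ZT8. The groups were far apart for their spread, with means of 55.3 ± 3.03 (SD, n = 4) and 34.2 ± 2.51 (SD, n = 3), a ratio of 1.62. The difference was 0.68 (SE 0.12, adjusted p = 0.0111, limma), and it passed without any 1 library, at 0.62 to 0.71.

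Ratios of the co-receptors to the kinase overlapped between the groups. Gfra1 was 1.84 ± 0.487 times Ret at ZT20 (SD, n = 4) and 1.52 ± 0.0805 times at ZT8 (SD, n = 3). Gfra3 was 0.422 ± 0.0706 and 0.420 ± 0.0545 times Ret, and the sum of the 3 co-receptors was 2.21 to 3.41 times Ret at ZT20 and 2.39 to 2.99 times at ZT8, again with overlap. These ratios carry no test.

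Differences in the whole table varied with transcript length. Across 14745 tested genes with a known length, the difference correlated with the longest annotated transcript at a Spearman rho of 0.410, over genes, which are not independent replicates. In 10 equal groups of genes by length, the median difference ran from -0.13 in the second shortest to 0.69 in the longest. Set against genes of its own length group, Gfra3 (1997 nt) was 0.70 higher, Ngfr (3446 nt) 0.48 higher and Gfra1 (4641 nt) 0.46 higher. Ret (5456 nt) and Ntrk3 (19703 nt) were 0.13 and 0.076 above theirs, and Gfra2 (3472 nt) was 0.26 above. Bdnf (4266 nt) was at -0.085, Sort1 (6836 nt) at -0.080 and Ntrk2 (8744 nt) at -0.77 against their groups. Once the dependence of each library on length and GC content had been fitted and taken out, limma called Gfra3 higher (0.59, adjusted p = 0.0470) and Ntrk2 lower (-0.78, adjusted p = 0.0301). Gfra1 was then at 0.48 (adjusted p = 0.0666), Ngfr at 0.33 (0.127), Ret at 0.14 (0.570), Bdnf at 0.076 and Ntrk3 at 0.012 (0.976), and Sort1 turned to -0.047. Of the calls over all genes, 40.9% were then higher at ZT20, against 78.1% before. What made the difference vary with length was not tested.

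**Figure D3:**
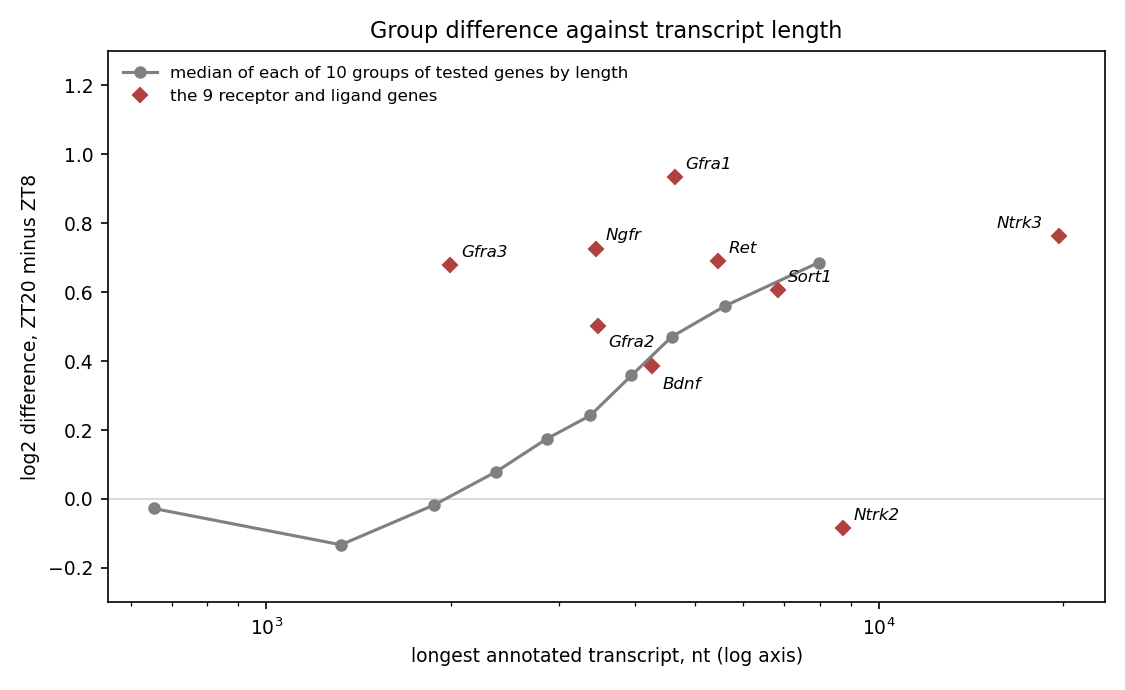
Difference between ZT20 and ZT8 on the log2(TPM + 1) scale against the length of the longest annotated transcript in nt (log axis), with the medians of 10 groups of tested genes by length as a line and the 9 genes as diamonds. Gfra3, Ngfr, Gfra1 and Gfra2 lie above the line and Ntrk2 lies furthest below it.

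Markers of other cells differed in part between the groups. Summed TPM of 8 satellite glia markers was 7584 to 9280 at ZT20 and 12887 to 15596 at ZT8, without overlap, and 3 of the 8 fell, Apoe and Fabp7 among them, beside 3.61% of all tested genes called lower. Apoe alone made up most of that sum, at 6261 to 7615 and 10623 to 13557 TPM. The list's median difference was -0.40, and 2 of the 8 were positive (Cdh19, 0.38, and Kcnj10, 0.21, neither called). Summed neuronal markers overlapped, at 18126 to 21959 and 14366 to 20476, with 2 of 12 higher (Elavl4 and Syt1), a share near the 12.8% of all tested genes, and 0 of the 12 at 0 in any library. Of the 12, 10 had a positive difference, and the list's median was 0.30, beside 0.23 over all tested genes. The neuronal score, the mean log2 value of these markers, averaged 9.65 at ZT20 and 9.29 at ZT8, so as a covariate it was not equal between the groups. Schwann cell markers overlapped, at 1139 to 1284 and 917 to 1325. Macrophage markers overlapped in sum, at 292 to 623 and 315 to 716, with a median difference of -0.50 and 1 of 6 lower (C1qa, -1.17, adjusted p = 0.0253, limma). The part of these cells in the receptor differences was not tested beyond the covariates given next. With the neuronal marker score as a covariate limma called Gfra3 (0.80, adjusted p = 0.0283), while Gfra1 (0.58, 0.191), Ngfr (0.11, 0.769), Ret (0.58, 0.162) and Ntrk3 (0.38, 0.306) did not pass and Gfra2 was at -0.32. With the glial score as a covariate, Gfra1, Ntrk3, Ret, Gfra3 and Ngfr were called higher, and Ntrk2 was at 0.14. Scaling by median ratio moved the median of all genes from 0.23 to 0.033 with 3 of the 9 genes called, and quantile normalization moved it to 0.0046 with 5 called (the same 4 and Ngfr). Under these scalings 49.3% and 55.7% of all calls were higher at ZT20. Of all tested genes, 15.5% were called under median-ratio scaling and 12.4% under quantile normalization, beside 6.99% with the neuronal and 13.3% with the glial covariate.

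**Figure D4:**
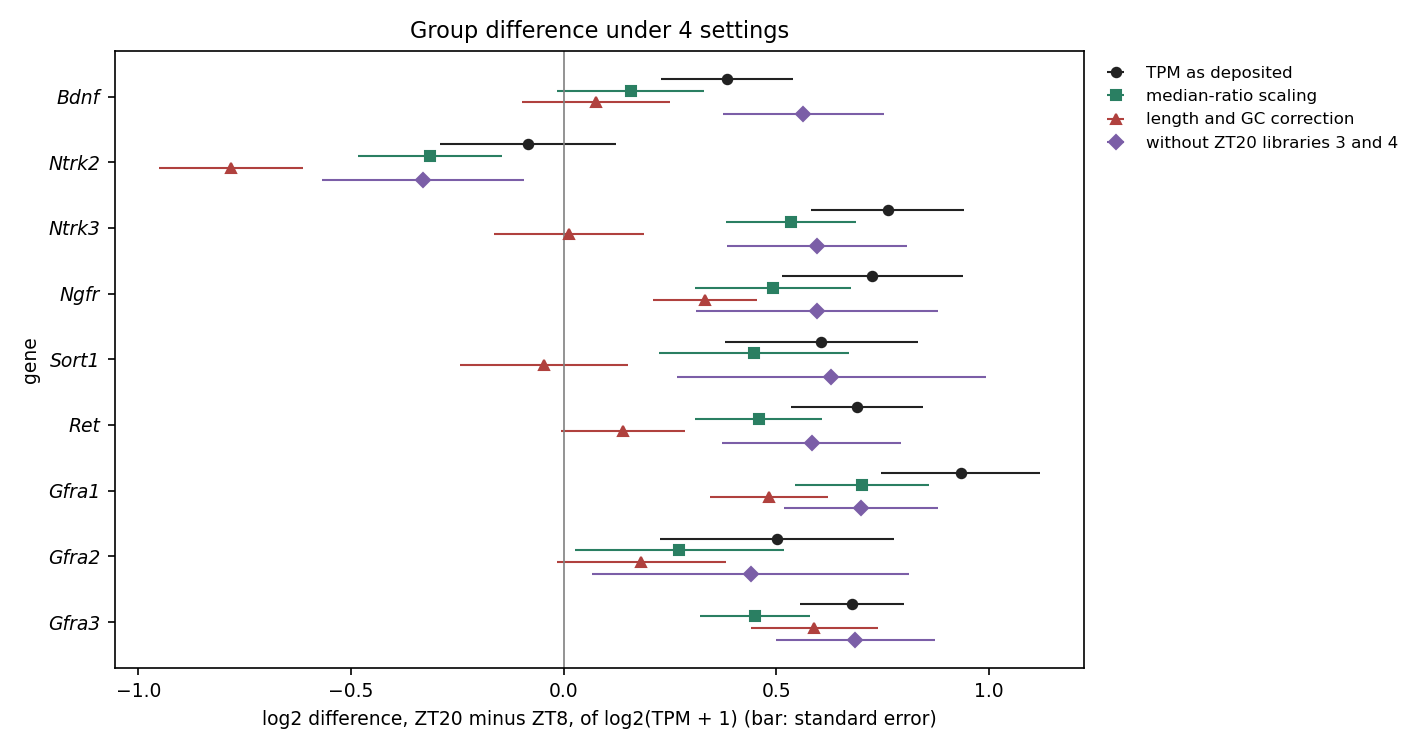
Difference between ZT20 and ZT8 for each of the 9 genes on the log2(TPM + 1) scale under 4 settings: TPM as deposited, median-ratio scaling, the length and GC correction, and without ZT20 libraries 3 and 4. Points are limma estimates and bars are standard errors. Ntrk2 lies below 0 in all 4 settings, Sort1 lies below 0 (-0.047) after the length and GC correction, and the other 7 genes lie above 0 in each.

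Other ligands were low. Ntf3, the ligand of TrkC, was at 0.850 and 1.21 TPM in mean (difference -0.29, adjusted p = 0.584, limma). Gdnf, Artn, Pspn, Ntf5 and the receptor gene Gfral were listed at 0 in 1 or more libraries and were not tested, and Artn was listed at 0 in each ZT8 library. Nrtn, which encodes neurturin, was at 0.806, 10.6, 4.99 and 3.68 TPM at ZT20 and at 10.8, 12.3 and 15.4 TPM at ZT8. All of the ZT20 libraries were below the ZT8 libraries, as in 8.72% of tested genes, and the difference of -1.48 (SE 0.54, adjusted p = 0.0897, limma) did not pass. It passed without ZT20 replicate 2 (-1.89, adjusted p = 0.0375) and after the length and GC correction (-1.71, adjusted p = 0.0499). Without ZT20 replicate 1, the lowest library, it was -0.999 (0.119), and with the neuronal covariate -1.21 (0.414).

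Among the other receptor genes, Sorl1, a sorting receptor related to sortilin, rose from 31.0 ± 4.33 TPM (SD, n = 3) at ZT8 to 69.3 ± 7.07 TPM (SD, n = 4) at ZT20, a difference of 1.14 (SE 0.15, adjusted p = 0.00398, limma). It was at 0.36 after the length and GC correction (adjusted p = 0.156). Ncam1, which can serve as a receptor for GDNF with GFRα1, rose by 0.82 (adjusted p = 0.0244, limma) and missed the threshold without ZT20 replicate 1 (0.86, 0.0536), replicate 3 (0.89, 0.0529) or replicate 4 (0.85, 0.0632), or without ZT8 replicate 3 (0.68, 0.0681). After the length and GC correction Ncam1 was at 0.20 (adjusted p = 0.566), and after median-ratio scaling at 0.59 (0.0868). It also missed the threshold with no filter (0.0658) and with the neuronal (0.0676) or the glial (0.0515) covariate. Gfra4 had a negative difference (-0.47, adjusted p = 0.0644), with every ZT20 library below every ZT8 library. It passed under median-ratio scaling (-0.69, adjusted p = 0.0217), quantile normalization (-0.72, 0.0228) and a filter at 5 TPM (0.0485). It passed in 0 of the 7 fits without 1 library (-0.54 to -0.39, adjusted p = 0.0583 to 0.154, limma). Gfra4 also missed the threshold after the length and GC correction (-0.52, 0.0780), with no filter (0.0849) and with the neuronal (-0.57, 0.129) or the glial (-0.48, 0.109) covariate. Sorcs1 (0.030), Sorcs2 (0.096), Sorcs3 (0.73, adjusted p = 0.102) and Sdc3 (0.60, 0.0919) did not pass.

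The signalling genes downstream were read from lists of pathway genes, whose counts stand beside 12.8% of all tested genes called higher and 3.61% called lower. Of 24 tested genes on the list of adaptors and other signalling proteins of Trk and RET kinases, 12 rose and 0 fell, with a median of 0.88. The largest differences called were in Frs3 (1.57), Sos1 (1.48) and Rapgef1 (1.22). Of 13 tested feedback inhibitors and ubiquitin ligases, 5 rose and 0 fell, with a median of 0.75. Spry2, which dampens signalling from receptor tyrosine kinases, had the largest difference among them: 9.15, 16.1, 9.87 and 10.7 TPM at ZT20 against 1.88, 1.79 and 1.45 TPM at ZT8, or 2.18 (SE 0.24, adjusted p = 0.00261, limma). Lrig2 (1.56) and Spry4 (1.32) followed. In the processing list, 3 of 8 tested genes rose: the proteases Mmp9 (2.42), Furin (0.98) and Pcsk2 (0.87). Mmp9 was listed at 0 in ZT8 replicate 2. After the length and GC correction 3 genes of the adaptor list and 1 of the feedback list were called higher and 0 lower. In the processing list 1 gene was called in each direction. The medians of these lists were then 0.36, 0.21 and 0.074. Frs3 (1.40), Sos1 (0.88), Spry2 (2.15) and Mmp9 (2.12) were still called, while Rapgef1 (0.55, adjusted p = 0.196, limma), Lrig2 (0.97, 0.0683), Spry4 (0.84, 0.0797), Furin (0.36, 0.275) and Pcsk2 (0.43, 0.0778) were not.

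The p75 partners and the endocytosis genes were called at shares near those of all tested genes. The p75 partners gave 2 of 12 higher (Traf6, 1.22, and Irak1, 0.85), 0 lower and a median of 0.20, below the 0.23 of all tested genes. Endocytosis and transport genes gave 2 of 14 higher (the clathrin heavy chain Cltc, 1.06, and Ap2b1, 0.82), 1 lower (Gipc1, -0.38) and a median of 0.0050. Over all 9 pathway lists, which include the 9 genes, 30 of 90 tested genes rose and 1 fell, with a median of 0.49. After the length and GC correction 7 of the 90 were called higher and 6 lower, with a median of 0.088, beside 3.66% of all genes called higher and 5.28% called lower in that fit. The p75 partners then gave 0 higher and 1 lower, and the endocytosis genes 1 higher and 2 lower. Cltc (0.50) and Gipc1 (-0.41) were then still called, while Traf6 (0.66, adjusted p = 0.0873, limma), Irak1 (0.49, 0.185) and Ap2b1 (0.26, 0.377) were not. With the neuronal covariate, 4 of the 14 genes named from these 5 lists were called (Spry2, Spry4, Pcsk2 and Cltc), and Frs3 (0.82, adjusted p = 0.230, limma), Sos1 (1.10, 0.0721), Mmp9 (1.36, 0.254) and Rapgef1 (0.24, 0.584) were among those not called. The 14 were named because they were called in the main fit. That fit called 2433 genes, of which 589 were also called with the neuronal covariate, where 6.99% of all tested genes were called. Of the same 14 genes, 5 (Sos1, Spry2, Spry4, Pcsk2 and Cltc) passed without any 1 library, and the other 9 missed the threshold without at least 1 library, ZT20 replicate 3 or 4 among them in each case. Without ZT20 replicates 3 and 4, limma called none of these genes, as it called 0 genes in the whole table.

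**Figure D5:**
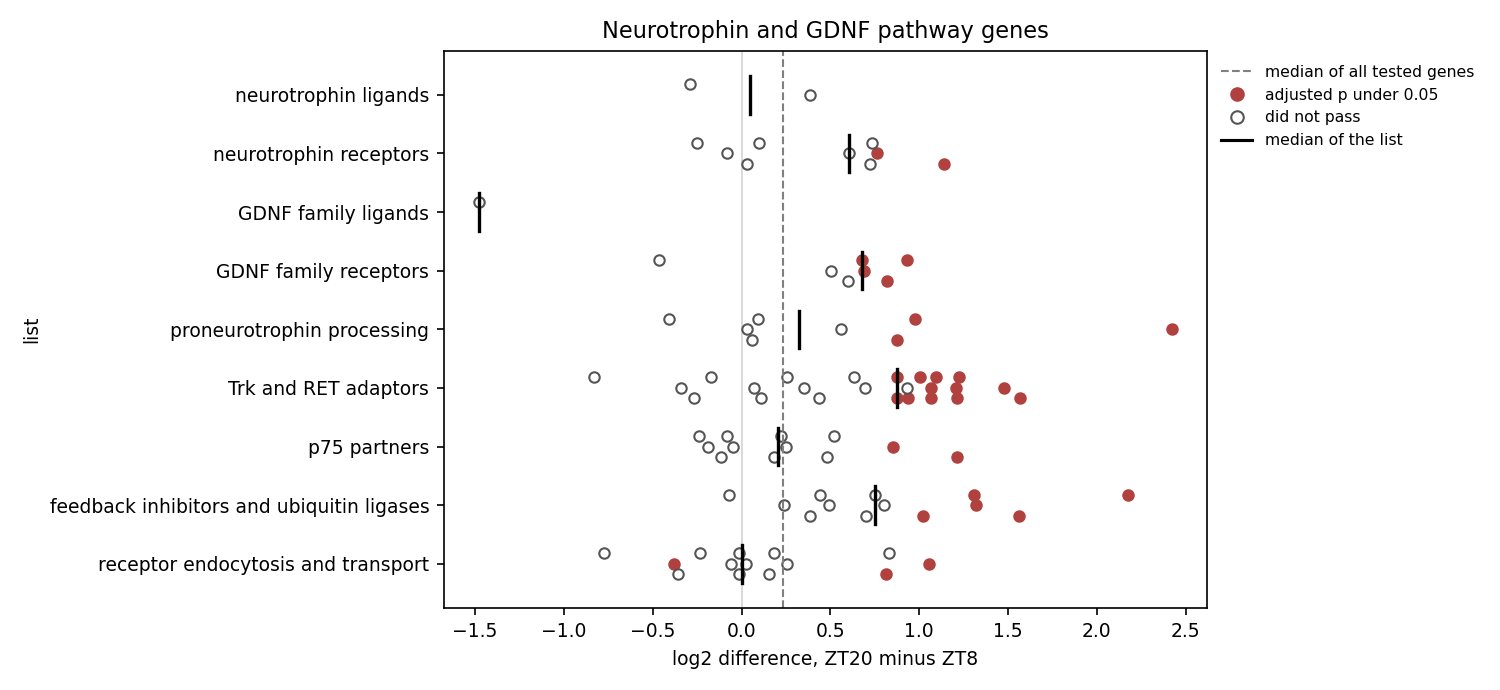
Difference between ZT20 and ZT8 on the log2(TPM + 1) scale for each tested gene of the 9 pathway lists, with filled points for an adjusted p under 0.05, a bar at each list's median and a dashed line at the median of all tested genes. Filled points lie to the right of 0 except Gipc1.

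For each of the 8 genes that averaged 5 TPM or more, the 3 genes of most similar profile over the 7 libraries were found by root-mean-square distance between log2(TPM + 1) profiles, each centred on its own mean, among 10267 genes of at least 5 TPM. Gfra3 had the closest neighbours: Klf7 (0.045), Dctn4 (0.055) and Cflar (0.063). Gfra1 lay nearest to Nfic (0.092), Cracd and Irgq, and Ret to Kat14 (0.073) and Bet1l. Ntrk3 lay nearest to Gria1 (0.066), Gpcpd1 and Slitrk1, and Ntrk2 to Tiparp (0.063), Abhd4 and Zfp358. Ngfr lay nearest to Fem1a (0.066), Atp6v0a1 and Slc29a2. Bdnf lay nearest to Cox8a (0.062), Khdrbs3 and Mt3, and Gfra2 to Rasgrf1 (0.074), Dtx3l and Ptgdr. The distances include the group difference and rest on 7 libraries.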

How the data were processed

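The authors deposited 1 table of TPM values per gene and library, with an Ensembl identifier and a symbol for each gene. Per the submitters' processing notes, FastQC 0.11.9, Trim Galore 0.6.6, Salmon 1.6.0, DESeq2 1.34.0 and the build GRCm39 were used; their roles, order and the annotation release are not given in the sources used here. Read depth is unknown, so no counting error is given. Each of the 7 columns was mapped by name to a library, and groups came from the sample titles.

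Values were analysed as log2(TPM + 1) with limma 3.58.1 in R 4.3.3 (intensity trend, 2-sided, no covariate) over 14800 genes (mean of 1 TPM or more). The procedure was also run on simulated data, with independent noise drawn from limma's fitted variances and no library effects. That run has no bearing on whether the calls above depend on single libraries. Alternatives are listed in the closing section. Lengths, transcript counts and overlaps were taken from GENCODE M21, by identifier, for 99.6% of tested genes.

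The genes named are all 9 genes above, the other ligands and receptors of the lists, up to 3 called genes per direction of each other list, and the nearest profiles. The genes and lists were chosen with earlier results of these data known. Values of genes with overlapping neighbours (Bdnf, Ntrk2, Ntrk3, Sort1 and Gfra1) are uncertain, since strand handling is not stated. Spry3 was listed but not analysed here, and some genes that the rule names are not reported here.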

Additional observations from a re-analysis of the deposited data

Results flagged for a closer look

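Among 38 named ligand, receptor and pathway genes examined in the ZT20 group, 5 had 1 library far from the other 3, where chance gives about 1.9 (1 group in 20). The number after each gene is the gap to the nearest library as a share of the group's range. Ngfr (0.939) was at 908 TPM in replicate 2, below the 1315 to 1341 TPM of the others. Gfra2 (0.913) was at 97.2 TPM in replicate 3, above the 78.9 to 80.5 TPM of the others. Sorcs3 (0.869) was at 7.11 TPM in replicate 2, below the 9.37 to 9.71 TPM of the others. Ncam1 (0.848) was at 205.9 TPM in replicate 2, above 133 to 144 TPM in the others. Ntf5 (1) was at 0.0337 TPM in replicate 4 and listed at 0 in the others, so that any value above 0 there gives a share of 1 and it says nothing against the number that chance gives.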

How the results depend on the processing

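Of 21 alternative fits per gene, Gfra3 passed in 19 (0.45 to 0.80), Gfra1 in 16 (0.48 to 1.17), Ntrk3 and Ret in 12 each, Ngfr in 8, Ntrk2 in 1 and Sort1 in 1 of 20, and Bdnf and Gfra2 in none. Where 2433 genes were called (1899 higher, 534 lower), there were 1178 (978 and 200) with no filter, with 2 of the 9 genes called; 1319 with length and GC correction (540 higher), with 2; 1034 (790 and 244) with the neuronal covariate, with 1; and 3899 (2982 and 917) with array weights. Median-ratio scaling gave 1128 higher and 1160 lower, quantile normalization 1023 and 814, and no intensity trend 332 lower. Without ZT20 libraries 3 and 4, and without 2, 3 and 4, all these counts were 0 with limma. Leaving out 1 library gave 723 to 3047 genes, 620 to 2375 higher, 103 to 672 lower, and 1 to 5 of the 9 genes.

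The replicate numbers did not pair the libraries: same-numbered libraries correlated at -0.014, 0.15 and 0.083, and 1 of 3 ZT8 libraries correlated best with its own number. A replicate block gave 1174 genes (891 and 283), with 3 of the 9 called (Ngfr, Gfra3 and Gfra1).

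The sign turned for Sort1 (-0.047, length and GC), Gfra2 (-0.32, neuronal covariate), Ntrk2 (0.14, glial covariate; -0.27 to 0.037 leaving out 1 library) and Ntf3 (0.063, without ZT20 libraries 2, 3 and 4). Sorcs1 was at -0.17 (median-ratio), -0.31 (quantile), -0.59 (length and GC), -0.038 (block), -0.056 and -0.18 (without those ZT20 libraries), and -0.038 to 0.10 leaving out 1 library. Sorcs2 was at -0.054, -0.24 and -0.53 under the first 3, -0.0043 with the neuronal covariate, -0.069 and -0.076 without those ZT20 libraries, and -0.012 to 0.25 leaving out 1 library. The cause was not tested. Read depth is unknown, which limits what low values such as Sort1 can show.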

Other observations

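Markers of the neuron classes that carry these receptors were read from lists, with the genes named here chosen after their values were seen. Over all tested genes 12.8% were called higher and 3.61% lower, and 24.5% had groups that did not overlap with ZT20 higher. Nonpeptidergic nociceptor markers summed to 400 to 500 TPM at ZT20 and 286 to 351 TPM at ZT8, without overlap, with 2 of 5 called higher by limma. Markers of A-delta and A-beta touch neurons summed to 21.0 to 25.1 and 11.1 to 15.3 TPM, again without overlap, with 2 of 4 tested genes called higher. These were Cacna1h (1.02, 8230 nt) and Maf (1.29, 6360 nt), while Colq (0.68) and Cadps2 (0.20) were not called. In the length groups of Cacna1h and Maf, 36.5% and 27.1% of all genes were called higher. Proprioceptor markers overlapped, at 607 to 860 and 495 to 1279 TPM, with 0 of 5 called and a median difference of 0.13. Of these, Runx3 (0.50), Whrn (0.16) and Etv1 (0.13) had positive differences, and Spp1 (-0.064) and Pvalb (-0.58, adjusted p = 0.0750, limma) negative ones. Markers of C-LTMR, the unmyelinated touch neurons, overlapped at 107 to 155 and 147 to 202 TPM, with 0 of 4 called, a median of -0.27 and 1 of 4 positive. Tafa4 was lower in every ZT20 library (-0.62, adjusted p = 0.0563), and Zfp521 was higher in each (0.55, 0.123). Peptidergic nociceptor markers overlapped, at 4381 to 6515 and 4472 to 5432 TPM, with 2 of 5 called higher (Adcyap1, 1.71, and Trpv1, 0.94). Plasma cell markers summed to 267 to 486 TPM at ZT20 and 496 to 935 TPM at ZT8, with 1 of 5 called lower (Mzb1, -2.88, adjusted p = 0.0432, limma), a median difference of -0.0047 and 2 of 5 positive. Jchain was at 10.2, 176, 157 and 4.18 TPM at ZT20 and at 560, 195 and 317 TPM at ZT8 (adjusted p = 0.102), while Xbp1 (0.044), Derl3 (0.0013) and Sdc1 (-0.0047) were near 0 in difference. The sums thus differed mostly through Jchain, and the part of these cells in the receptor differences was not tested.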
